A study of Mus musculus with 2 samples.

Results

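Neuronal cytoskeleton and growth genes were examined here in the adrenal gland of the young mouse. The set held 10 genes, taken by symbol from the deposited annotation: the intermediate filament genes Prph, Nefl, Nefm and Nefh, the microtubule genes Tubb3, Stmn2 and Stmn3, the growth cone gene Gap43, the RNA-binding protein gene Elavl4 and the ubiquitin hydrolase gene Uchl1. They are 10 of the 55536 annotated genes of the tables, and all 10 were found. Total RNA was sequenced from adrenal gland of male B6CASTF1/J mice, first-generation hybrids of the C57BL/6J and CAST/EiJ strains, at 10 days of age, with no treatment and no altered allele named in the labels. The samples form a single group of 2 replicates, each with 1 library made from 300 ng of RNA with synthetic spike-in transcripts, and the labels hold no further condition to compare. The characteristics number the animals 3 (replicate 1) and 4 (replicate 2), while both library descriptions give animal number 3 and both samples carry the same donor identifier. Whether the libraries come from different animals therefore cannot be told, and the spread between them may be technical.

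The adrenal medulla and the nerve fibres that reach it come from the neural crest or the neural tube, and both use parts of the neuronal cytoskeleton. Neurofilaments and peripherin are intermediate filaments that fill axons, peripherin mainly in nerve cells of the peripheral nervous system. Class III beta-tubulin and the stathmins form and destabilise microtubules, and GAP-43 lies under the membrane of growing axon tips. Chromaffin cells, the hormone cells of the medulla, are relatives of sympathetic neurons and are known to carry several of these proteins, so a transcript of the set does not by itself name its cell.

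Levels are given as TPM, a unit that divides reads by transcript length and library total and so allows genes to be compared. Uchl1 was by far the most abundant of the genes, and Nefm and Nefh, the medium and heavy neurofilament genes, were the least abundant. Uchl1 stood at 35.6 and 38.1 TPM in the libraries of replicates 1 and 2, a mean of 36.9 ± 1.82 (SD, n = 2). It made up 57.2% and 43.3% of the summed TPM of the 10 genes, which was 62.2 in replicate 1 and 88.0 in replicate 2. Nefh, the heavy neurofilament subunit, lay at the low end with 0.745 ± 0.0919 TPM (SD, n = 2), so that the highest and lowest means were 49.5-fold apart. In all, 8 of the 10 genes reached 1 TPM in both libraries, and 9 did so in at least 1. Over all protein-coding genes 56.7% reached it in both, and 96.7% of those that averaged 100 expected counts or more did, a limit that all 10 genes here passed. The median of the 10 means was 4.83 TPM, beside a median of 9.68 TPM over the 12491 protein-coding genes outside the mitochondrial genome that passed this limit.

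**Figure D1:**
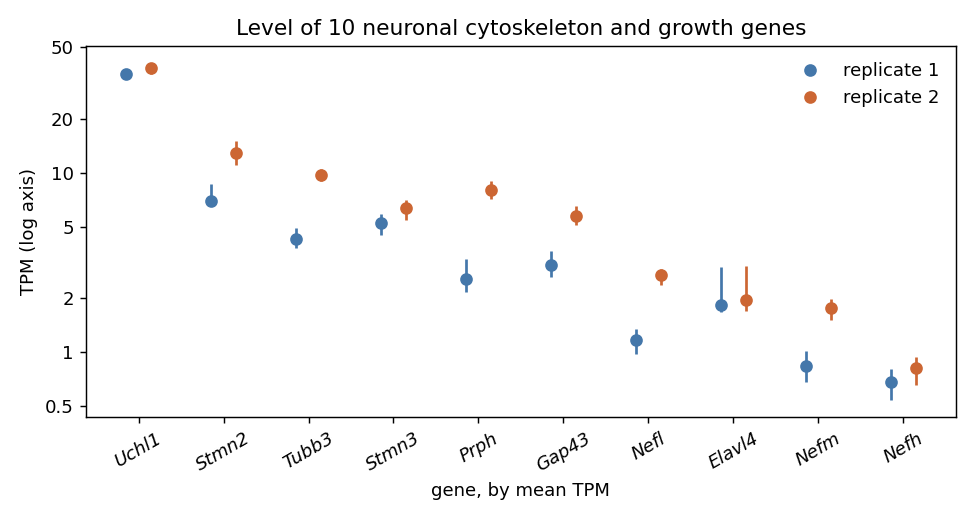
TPM (log axis) of each gene in replicate 1 and replicate 2, ordered by mean TPM, with points for the deposited values and bars for the authors' deposited interval bounds of TPM. Uchl1 stands apart near 36.9 TPM, and the points of Prph, Tubb3, Nefl and Nefm are far apart between the libraries while those of Uchl1, Elavl4 and Nefh lie close.

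By mean level the order was Uchl1, Stmn2, Tubb3, Stmn3, Prph, Gap43, Nefl, Elavl4, Nefm and Nefh. Of the 9 pairs of neighbours in that order, 5 had library ranges that overlapped. Among these, Stmn2 was above Tubb3 within each library, at 6.95 against 4.26 TPM in replicate 1 and 12.9 against 9.74 in replicate 2. The rest swapped places between the libraries, so their order is not fixed by these data: Tubb3 with Stmn3, Stmn3 with Prph, Prph with Gap43, and Nefl with Elavl4. The ranges of Uchl1 and Stmn2, of Gap43 and Nefl, of Elavl4 and Nefm, and of Nefm and Nefh did not overlap. The authors' deposited intervals of Elavl4 and Nefm did overlap in replicate 2, and those of Nefm and Nefh in replicate 1. Uchl1 exceeded 92.2% and 92.7% of all protein-coding genes in replicates 1 and 2, and Nefh exceeded 39.8% of them in each.

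Between the libraries, part of the set lay far apart and part lay close. Prph, Tubb3, Nefl and Nefm were each more than 2-fold higher in replicate 2, after expected counts were scaled by TMM, a scaling that takes most genes as equal. These 4 of 10 genes compare with 4.52% of the 12491 protein-coding genes past 2-fold in that direction. At 1.5-fold the count was 6 against 7.87% of all genes tested, and at 3-fold it was 1 against 1.62%. None of the 10 was more than 2-fold lower, against 0.104% of all genes tested. The median fold of the set was 1.70, beside 0.998 over all genes tested. Of the set, 9 genes had a higher scaled count in replicate 2, against 49.3% of all genes tested. The genes were chosen with earlier results of these data known, so these counts describe the libraries and carry no test. No p-value is given for a gene, because each replicate has 1 library and the spread within a replicate is not known. In bulk tissue, more cells of a type and more RNA per cell cannot be told apart.

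**Figure D2:**
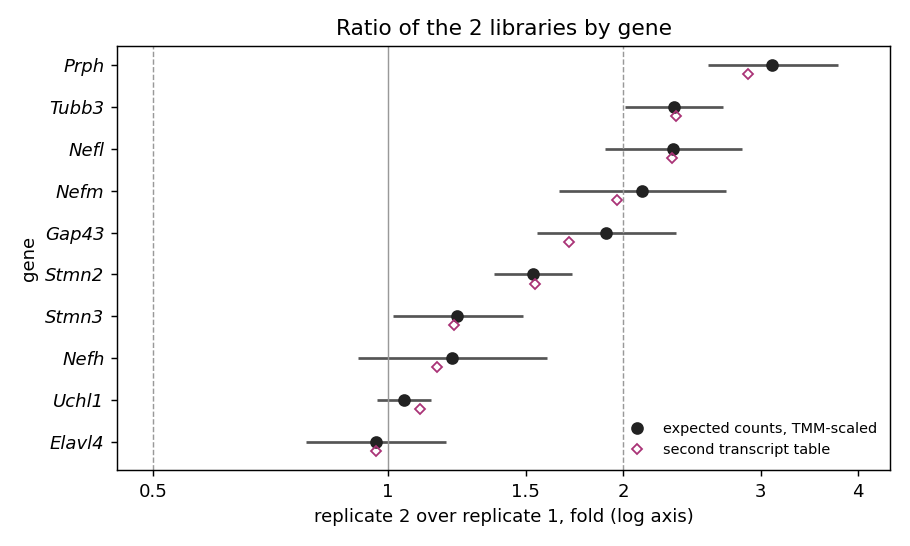
Fold of replicate 2 over replicate 1 (log axis) for each gene, with filled points for scaled expected counts, bars for exact 95% counting intervals and open diamonds for the second deposited transcript table. Dashed lines mark 2-fold, and Prph at 3.10, Tubb3 at 2.32, Nefl at 2.31 and Nefm at 2.11 lie beyond it, with the diamond of Nefm just inside.

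Among the intermediate filament genes, Prph had the widest gap between the libraries. Prph encodes peripherin, a filament protein of peripheral neurons, and lies at chr15:99055174-99058978 on the plus strand (mm10). It stood at 2.56 TPM from 147 expected counts in replicate 1 and at 7.98 TPM from 456 in replicate 2. The scaled fold was 3.10, with an exact (Clopper-Pearson) 95% interval of 2.57 to 3.77 that, like every such interval here, covers counting error only. The authors' deposited intervals of TPM, 2.16 to 3.28 and 7.14 to 8.94, did not overlap.

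Nefl and Nefm, the light and medium neurofilament subunits, had like folds. Nefl (chr14:68083863-68089095, plus strand) stood at 1.17 and 2.68 TPM from 141 and 326 counts, a fold of 2.31 (1.89 to 2.84). Nefm (chr14:68082590-68124846, minus strand) stood at 0.84 and 1.76 TPM from 100 and 211 counts, a fold of 2.11 (1.66 to 2.71). Within a library the ratio of Nefl to Nefm in TPM stayed near the same value, 1.39 in replicate 1 and 1.52 in replicate 2. The annotated spans of Nefl and Nefm overlap on opposite strands. The overlap comes from Nefm-202 alone, a long transcript model that held 0% and 0.571% of the TPM of Nefm, and whether the authors counted by strand is not given in the sources used here.

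Nefh, the heavy subunit that joins axons late in their maturation, lay closer to equal. It lies at chr11:4938754-4948064 on the minus strand and stood at 0.68 and 0.81 TPM from 97 and 117 counts. Its fold was 1.21, and the interval of 0.915 to 1.60 held 1. Relative to Nefh, Nefl was 1.72-fold higher in replicate 1 and 3.31-fold higher in replicate 2, and Prph was 3.76-fold and 9.85-fold higher. The balance of the filament genes against Nefh thus differed between the libraries, while that of Nefl against Nefm was close.

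Of the other intermediate filament genes, the neuronal one was flat. Ina encodes alpha-internexin, the fourth neurofilament partner in many neurons, and stood at 2.38 and 2.52 TPM, a fold of 1.07 (0.908 to 1.27). It was 2.03-fold above Nefl in replicate 1 and 0.940 times its level in replicate 2. Of the 8 genes of the family outside the set that reached 100 counts, Des alone passed 2-fold, at 10.7 and 20.8 TPM. Des encodes desmin, the filament of muscle cells. Vim, the filament gene of mesenchymal and glial cells, stood at 151 and 202 TPM with a fold of 1.34, and was 59.1-fold and 25.3-fold above Prph.

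A few bases of Prph RNA are shown because transcript models that keep an intron were given part of its TPM. The mature transcript Prph-201 joins exon 4 to exon 5, and Prph-202 and Prph-204 keep the 96 bases between them, chr15:99056937-99057032, within the coding sequence. Both stretches are from GENCODE M21 on the plus strand, and capitals mark the kept intron.
Prph-201: taagtcgaaatatgctgacc
Prph-202: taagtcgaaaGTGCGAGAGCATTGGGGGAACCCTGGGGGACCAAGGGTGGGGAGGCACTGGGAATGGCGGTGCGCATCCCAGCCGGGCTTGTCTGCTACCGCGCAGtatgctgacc
Prph-201 held 88.7% and 85.6% of the TPM of Prph. The transcripts that keep this intron held 4.30% in replicate 1 and 5.26% in replicate 2, from 7.14 and 27.3 expected counts. In the second transcript table, which was made from the reads without the alignments, they held 6.07% and 7.16%. The short model Prph-203 was less steady, at 7.03% and 9.15% in the alignment-based table and 23.9% and 0% in the second. The 4 shares of the kept intron are small, and all come from few counts. In the alignment-based table the share was that of Prph-202 alone in replicate 1 and of Prph-204 alone in replicate 2.

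The microtubule genes also differed among themselves, with Tubb3 past 2-fold, Stmn2 at a fold of 1.53 and Stmn3 at 1.23. Tubb3 encodes class III beta-tubulin, the beta-tubulin of neurons, and lies at chr8:123411424-123422015 on the plus strand. It stood at 4.26 TPM from 276 counts in replicate 1 and 9.74 TPM from 640 in replicate 2, a fold of 2.32 (2.01 to 2.68). The deposited intervals, 3.79 to 4.90 and 8.94 to 10.5 TPM, did not overlap. Tubb3 lies within Gm20388, a far longer gene model on the same strand (chr8:119910841-124345722) that took 0 and 94.6 counts. The expected counts of Tubb3 were whole numbers in both libraries. Where in Gm20388 its reads lie was not tested.

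The 6 beta-tubulin genes outside the set that averaged 100 counts or more did not reach 2-fold. Tubb1, with 9 and 21 counts, was left out of that count at a fold of 2.34 (1.03 to 5.79). Of the 6, 4 had a higher and 2 a lower scaled count in replicate 2. Tubb2b, which is also high in developing neurons, came nearest, at 4.24 and 8.26 TPM and a fold of 1.98 (1.73 to 2.27). Tubb2b was level with Tubb3 in replicate 1 at a ratio of 0.995 and stood at 0.848 of it in replicate 2. Tubb5, the most abundant of the family, was at 117 TPM in replicate 1 and 116 in replicate 2. It was 27.5-fold and 12.0-fold above Tubb3. Of the 5 alpha-tubulin genes with enough counts, none passed 2-fold, and Tuba1a, the alpha-tubulin of developing neurons, stood at 57.8 and 67.2 TPM.

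Stathmins bind tubulin dimers and destabilise microtubules, and Stmn2 and Stmn3 are their neuronal members. Stmn2 (chr3:8509360-8561606, plus strand) stood at 6.95 TPM from 503 counts in replicate 1 and 12.9 TPM from 770 in replicate 2. Its fold in scaled counts was 1.53 (1.37 to 1.72), below 2-fold, although in TPM it was 1.85. The gap between these values lies in Stmn2-203, a transcript of 308 bases with no bases of its own, which held 2.58 of the gene's 12.9 TPM in replicate 2, none in replicate 1 and none in the second table. In that table the fold in counts was 1.54.

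Stmn3 (chr2:181306459-181314500, minus strand) was at 5.24 and 6.34 TPM from 199 and 244 counts. Its fold was 1.23 (1.01 to 1.49), and the deposited intervals overlapped. Stmn1, the member that dividing cells also carry, stood at 51.8 and 46.4 TPM, with a fold of 0.897. It was 7.46-fold above Stmn2 in replicate 1 and 3.61-fold above it in replicate 2. Stmn4 had 32 and 37 counts and was left out of the counts of genes past 2-fold.

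The upstream bases of Prph and Stmn3 are shown as an example from a gene past 2-fold and from a gene within it. The 100 bases before each RefSeq start (GRCm38.p6) are chr15:99055074-99055173 on the plus strand and chr2:181314501-181314600 on the minus strand, written 5′ to 3′ with motif matches in capitals.
Prph: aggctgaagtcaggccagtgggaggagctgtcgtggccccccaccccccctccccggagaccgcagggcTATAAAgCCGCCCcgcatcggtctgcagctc
Stmn3: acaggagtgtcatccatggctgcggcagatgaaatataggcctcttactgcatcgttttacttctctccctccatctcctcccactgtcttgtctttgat
The Prph window held a TATA box (TATAAA) 31 bases before the start and a GC box (GGGCGG) on the other strand 24 bases before it. Both strands were searched, also for the CCAAT box (CCAAT), for an E-box (CACGTG) and for the core of the cAMP response element (TGACG), and the matches shown do not overlap. Of the 32851 RefSeq windows of this length, 5.56% held TATAAA and 24.7% held GGGCGG. None of these letters was in the Stmn3 window or in that of Uchl1. Windows were at hand for 5 of the 10 genes. Matches were not confined to genes past 2-fold, as windows of Elavl4, which lay within it, held CCAAT and TGACG. A match is a description and not a site of binding.

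Gap43 came close to 2-fold without passing it. Gap43 encodes the growth-associated protein of axon tips and lies at chr16:42248442-42340651 on the minus strand. It stood at 3.06 TPM from 148 counts in replicate 1 and 5.73 TPM from 281 in replicate 2, a fold of 1.90 (1.55 to 2.33). The deposited intervals, 2.61 to 3.65 and 5.08 to 6.49 TPM, did not overlap. Other substrates of protein kinase C at the growth cone moved less. Basp1 stood at 4.76 and 5.84 TPM with a fold of 1.25, and Marcks at 34.8 and 35.5 TPM with a fold of 1.04.

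Elavl4 was the single gene of the set with a lower scaled count in replicate 2. Its product, HuD, binds AU-rich stretches of RNA in neurons and steadies their transcripts. Elavl4 (chr4:110203722-110351909, minus strand) stood at 1.84 and 1.95 TPM from 194 and 187 counts, a fold of 0.965 (0.785 to 1.19). The sign is not settled, since the interval holds 1 and the TPM was slightly higher in replicate 2. In the same family, Elavl2, another neuronal member, stood at 0.82 and 2.32 TPM from 65 and 187 counts, a fold of 2.88 (2.16 to 3.88). Elavl1, which most cells express, stood at 29.7 and 27.9 TPM, 16.2-fold and 14.3-fold above Elavl4.

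Uchl1 hardly differed between the libraries. It encodes a ubiquitin C-terminal hydrolase that is abundant in neurons and neuroendocrine cells, and lies at chr5:66676091-66687234 on the plus strand. From 1216 and 1275 counts its fold was 1.05 (0.969 to 1.14), and the deposited intervals, 33.2 to 38.0 and 35.4 to 40.9 TPM, overlapped. Uchl1 was 13.9-fold above Prph in replicate 1 and 4.78-fold above it in replicate 2. Uchl3, its widespread relative, stood at 14.6 and 13.6 TPM, and none of the 3 relatives with enough counts passed 2-fold.

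The first bases that tell the main Uchl1 transcripts apart are shown because the deposited tables divide the gene between them in opposite ways. Uchl1-201 is the coding transcript and Uchl1-202 a retained-intron model that starts in the intron before exon 3. For Uchl1-201 capitals mark the coding bases of exons 1 and 2, and for Uchl1-202 the 52 intronic bases that no other transcript of the gene holds. The small letters are the shared start of exon 3 (GENCODE M21, plus strand, chr5:66676290-66676963 for Uchl1-201 with its introns left out and chr5:66676892-66676963 for Uchl1-202).
Uchl1-201: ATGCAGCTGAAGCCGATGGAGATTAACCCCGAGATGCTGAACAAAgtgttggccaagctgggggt
Uchl1-202: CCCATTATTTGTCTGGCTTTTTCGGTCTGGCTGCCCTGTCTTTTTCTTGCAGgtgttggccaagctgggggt
In the alignment-based table Uchl1-202 held 62.9% and 66.6% of the TPM of Uchl1, and Uchl1-201 held 34.1% and 27.9%. In the second table Uchl1-202 held none in either library, and Uchl1-201 held 96.6% and 97.3%. The makeup of Uchl1 thus turned on the quantification, in both libraries alike, while its count in the second table over that in the gene table was 1.06 and 1.12.

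**Figure D3:**
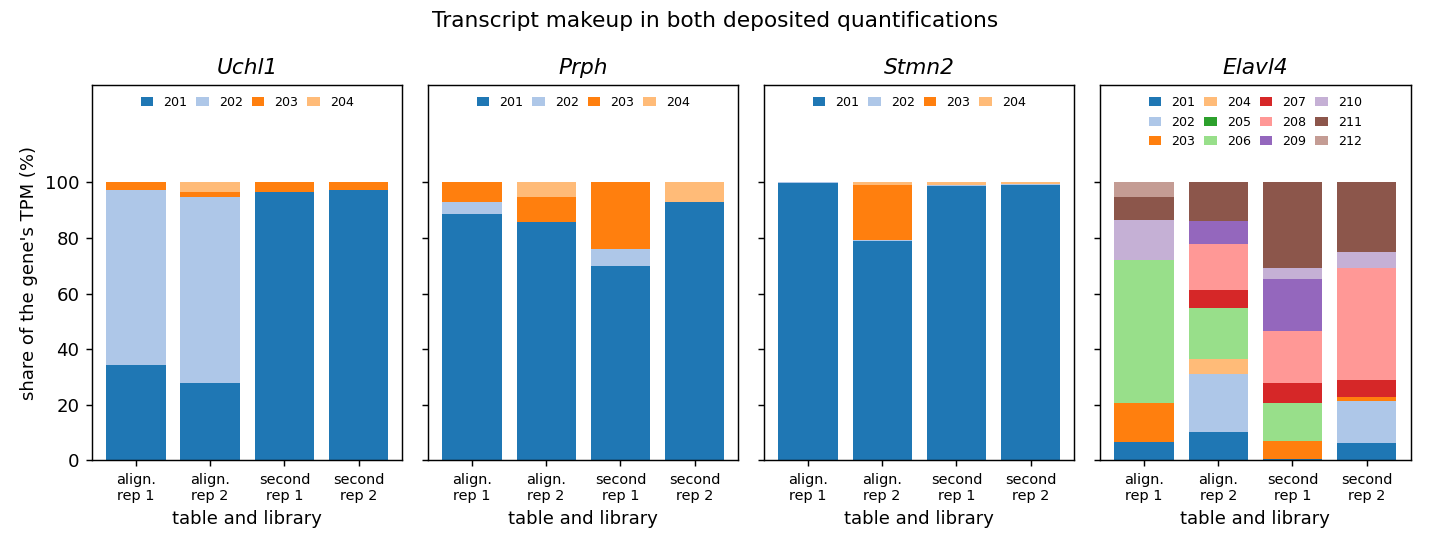
Share of the gene's TPM (%) by transcript for Uchl1, Prph, Stmn2 and Elavl4, in the alignment-based table and the second transcript table and in both libraries, with colours for transcript numbers of GENCODE M21. Uchl1-202 takes 62.9% and 66.6% in the alignment-based table and stands at 0 in the second, and no Elavl4 transcript leads throughout.

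The other genes had simpler makeups. The 10 genes have 33 annotated transcripts, 24 of them protein-coding and 5 with a retained intron, and 3 genes have a single transcript. The same transcript led in both libraries and both tables for 8 of the 10 genes, the exceptions being Uchl1 and Elavl4. Tubb3-201 held all of Tubb3 in the alignment-based table, and the second table gave 13.9% and 7.35% to Tubb3-202. Elavl4 has 12 transcripts, and its leader differed every time: Elavl4-206 in replicate 1 and Elavl4-202 in replicate 2 of the alignment-based table, and Elavl4-211 and Elavl4-208 in the second. The second table also gave Elavl4 the highest TPM relative to the gene table, by 3.48 and 2.72, where the median over all genes tested was 1.60 in replicate 1.

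Across the set, the tables gave much the same folds, while levels differed, most of all for Elavl4. Folds from the second table were 2.89 for Prph, 2.34 for Tubb3, 2.31 for Nefl and 1.96 for Nefm, so that Nefm fell just short of 2-fold there. The 3 genes past 2-fold in that table compare with 4.5% of the 12491 genes. Gap43 was at 1.70, and the lowest was Elavl4 at 0.965. The authors' deposited TPM intervals did not overlap between the libraries for 6 genes, Stmn2, Tubb3, Prph, Gap43, Nefl and Nefm, and overlapped for the other 4. All 6 were higher in replicate 2, as were 12.3% of the 12491 genes by the same rule, while 9.28% were lower.

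**Figure D4:**
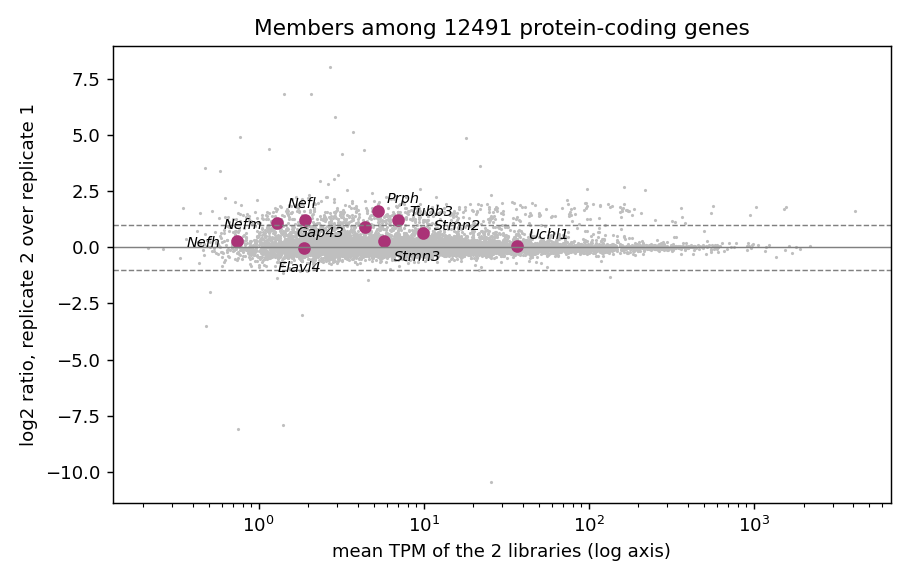
Log2 ratio of replicate 2 over replicate 1 against mean TPM (log axis) for 12491 protein-coding genes in grey, with the 10 genes of the set marked and named and dashed lines at 2-fold. The named points range from Elavl4 at -0.05 to Prph at 1.63, with Prph, Tubb3, Nefl and Nefm above the upper line.

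Other neuronal gene groups had medians near equal. The median fold was 1.05 over 18 microtubule-associated and growth cone genes with enough counts. Of them 1 passed 2-fold, against 4.52% of all genes tested that were more than 2-fold higher in replicate 2. That gene was Nrn1, which encodes neuritin, a protein of growing neurites, at 6.33 and 13.7 TPM. Mapt, which encodes tau, stood at 17.4 and 16.9 TPM, and Map1b at 20.3 and 19.5 TPM. Dpysl3 and Dpysl5, which encode collapsin response mediator proteins of growing axons, had folds of 1.49 and 1.70. Cnr1, the cannabinoid receptor gene, was the lowest at 0.681.

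Genes for the motors of axonal transport and for the linkers of the membrane skeleton were near equal. Of the 9 motor genes with enough counts none passed 2-fold, with a median fold of 1.03. Kif5a, a neuronal kinesin heavy chain, stood at 2.49 and 2.47 TPM. All 8 linker and spectrin genes had a lower scaled count in replicate 2, with folds from 0.775 to 0.992. A higher scaled count was found for 49.3% of all genes tested.

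Marker lists of the cells that could hold these transcripts moved in different directions. All 18 chromaffin genes were detected at 1 TPM or more in each library, as were 96.7% of all genes tested. All 18 had a lower scaled count in replicate 2, while 49.3% of all genes tested had a higher one. The list's median fold was 0.865, and its summed TPM was 1783 and 1485. Th, which makes the precursor of catecholamines, was 66.7-fold above Prph in replicate 1 and 19.2-fold in replicate 2. Th over Uchl1 was steadier, at 4.80-fold and 4.01-fold. The 9 cortex genes, also all detected, had a median fold of 0.922 and a summed TPM of 6997 and 6109. Prph, Tubb3, Nefl and Nefm were higher in the library where the medulla and cortex markers were slightly lower. Any link between the markers and these genes was not tested.

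Of 15 sympathetic neuron genes 14 had enough counts. Of these, 8 had a higher scaled count in replicate 2, against 49.3% of all genes tested. Of the 14, 2 were more than 2-fold higher in replicate 2, against 4.52% of all genes tested, and none was more than 2-fold lower. Sncg, which encodes gamma-synuclein, stood at 6.38 and 14.8 TPM, a fold of 2.36. Slc6a2, the noradrenaline transporter, had a fold of 1.73, and Npy, the most abundant of the list, stood at 199 and 183 TPM with a fold of 0.934. The list's summed TPM was 284 and 283, most of it Npy, and its median fold was 1.08. Genes of the list thus spread on either side of equal, with Sncg near the fold of Tubb3.

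Markers of other neurons were scarce. In the cholinergic list Chat was at 0 in both libraries and the summed TPM was 2.77 and 4.02, nearly all of it Ache. Of 13 sensory neuron genes 4 had enough counts, Mrgprd was at 0, and the summed TPM of 24.0 and 52.6 was mostly Pvalb, a gene that fast muscle fibres also express. Genes of central neurons and glia summed to 3.57 and 2.91 TPM.

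Markers of nerve support cells, skeletal muscle and liver were mostly higher in replicate 2, and those of brown fat mostly lower. Of 12 Schwann and sustentacular cell genes with enough counts, 10 had a higher scaled count, against 49.3% of all genes tested. Of the 12, 1 was more than 2-fold higher, against 4.52% of all genes tested. The median log2 ratio of the 12 was 0.26. The list's summed TPM was 93.7 and 107. Of 7 skeletal muscle genes 6 passed 2-fold, and the list summed to 301 and 820 TPM, with Chrng at 0 and 0.01. All 8 liver genes passed 2-fold, with a median fold of 3.39 and a sum of 4609 and 14545 TPM. The 6 brown fat genes, 4 of them lower, had a median fold of 0.859 and summed to 3455 and 3047 TPM. The part of any of these cell types and tissues in the gap of Prph, Tubb3, Nefl and Nefm was not tested.

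**Figure D5:**
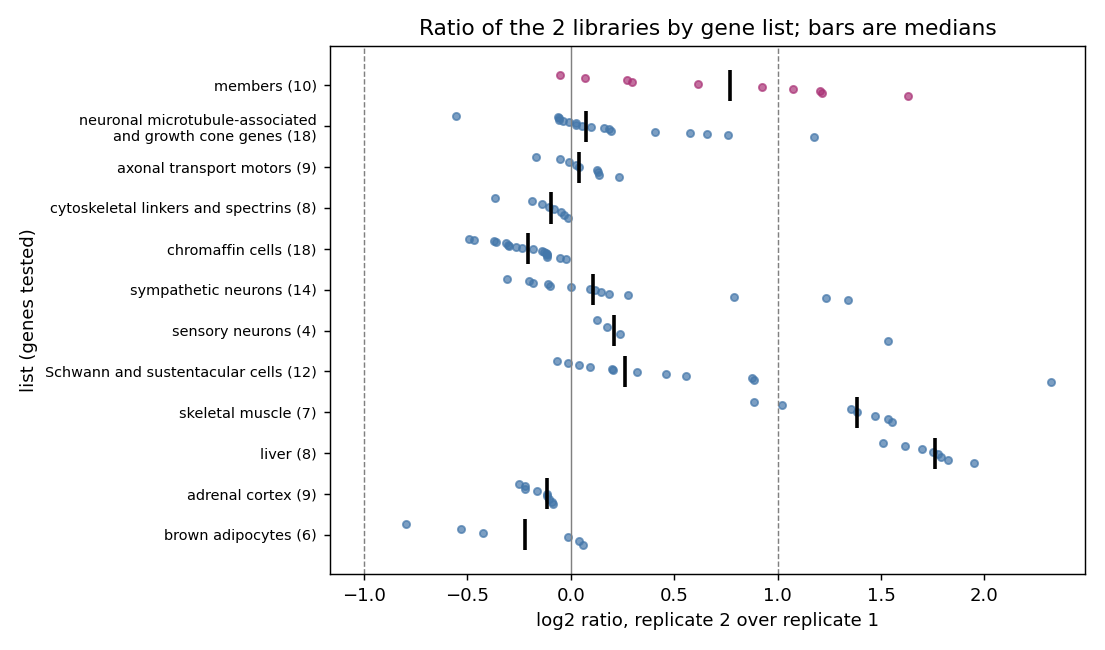
Log2 ratio of replicate 2 over replicate 1 for each gene with a mean of at least 100 counts, by gene list, with black bars for list medians and dashed lines at 2-fold. The set of 10 genes has a median of 0.77, which lies between the median of the chromaffin list at -0.21 and that of the liver list at 1.76.

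Genes with the most similar pair of values were sought among 22005 other protein-coding genes, by distance in log2(TPM + 0.1) over the 2 libraries. The nearest to Prph were Sult2a8 at 2.47 and 8.15 TPM, Klhdc7a at 2.59 and 7.65 TPM, and BC025446 at 2.68 and 7.91 TPM. For Uchl1 they were Ramp2, Rbpms and Fbxo21, all within 35.2 to 38.4 TPM. With 2 libraries such likeness means only that both values are close.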

How the data were processed

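Total RNA libraries of adrenal gland from 2 replicates were used, with replicate numbers as in the labels. Per the file headers, the authors made gene and transcript tables from alignments to the transcriptome (mm10, GENCODE M21), with expected counts (not normalised), TPM over all entries, interval bounds of TPM as a signal, and the percent of each gene's abundance per transcript. A second deposited transcript table, made from reads and an index, holds estimated counts and TPM. The aligner is not given in the sources used here, and neither are the tools. The libraries held 36982665 and 38984236 expected counts, 36652695 and 38641442 on annotated genes.

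Expected counts were scaled by TMM (edgeR 4.0.16, R 4.3.3) without rounding. Log2 ratios used a prior of 0.5 counts, and folds of single genes used none. Intervals are exact binomial (95%), are built from a gene's counts in the 2 libraries, and hold counting error alone. No molecular identifiers mark the reads. Genes past 2-fold were counted among nuclear protein-coding genes that averaged 100 counts or more. The computation was tested on simulated data in which as many genes were raised as lowered. Here 4.52% of genes tested were more than 2-fold higher in replicate 2 and 0.104% lower, an imbalance the simulation did not cover. Alternatives covered DESeq2 (1.42.0) size factors, other scalings, thresholds, filters and the second table. Other steps ran in Python 3.11.15.

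The named genes were the 10 of the set, genes of the family and pathway lists, of each cell type list the 3 most abundant and those past 2-fold with at least 100 counts on average, the 3 genes nearest to Prph and to the most abundant gene, and transcripts holding at least 10% of TPM in both libraries. Slc6a2, Chat, Mrgprd, Ache, Chrng, Th, Gm20388, Prph-202, Prph-203, Prph-204, Tubb3-202, Nefm-202, Stmn2-203 and the Elavl4 transcripts were named beside them after their values were seen. The members and lists were chosen with earlier results of these data known. Values of certain genes that the rule takes are left out. Protein sequences were not used here. The genome was that of C57BL/6J, and reads of the CAST/EiJ allele were not analysed separately.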

Additional observations from a re-analysis of the deposited data

How the results depend on the processing

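The 4 genes past 2-fold (Prph, Tubb3, Nefl, Nefm) stayed 4 under DESeq2 size factors, spike-in scaling, TPM ratios and a prior of 5 counts. They were 3 under library totals and in the second table, where Nefm fell short, 6 at a 1.5-fold threshold (7.87% of all genes) and 1 (Prph) at a 3-fold threshold (1.62%). The median log2 ratio ranged from 0.69 to 0.90. Of 60 single-gene values 59 stayed inside the counting interval, the exception being Stmn2 at 0.89 from TPM ratios. The share of all genes more than 2-fold higher in replicate 2 was 6.88% with a mean of at least 10 counts, 2.56% with at least 1000 counts and 10.7% with no filter on low counts. The median level of the set was 7.12 TPM in the second table and 14.3 TPM when rescaled over nuclear protein-coding genes, which changes the denominator, and ranged from 2.81 to 6.04 TPM when either library was left out. The set's median minus the chromaffin median was -1.61 on the log2 scale (-2.18 in replicate 1 and -1.04 in replicate 2), or -2.47 when means were taken (-2.96 and -1.98). The cause was not tested. Counts of 97 to 1275 per gene set the width of the intervals. No paired analysis was possible because there is a single group.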
